A study of Rattus norvegicus with 10 samples.

Results

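The genes of DNA replication and nucleotide synthesis were followed here as a set of 44, named gene by gene and taken from the 39784 gene names of the deposited tables. All 44 were present, all 44 reached the minimum mean level for testing, and 13420 names did so in all. The members were sorted by role into origin licensing (4 genes), the MCM2-7 helicase (6), helicase activation (6), polymerases and primase (7), the sliding clamp and its loader (6), single-strand binding and the fork checkpoint (4), Okazaki fragment maturation (2), nucleotide enzymes (4), and chromatin and methylation at the fork (5).

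The cells were cardiomyocytes of neonatal rat heart, wild type in genotype and kept in serum-containing medium, that had received either Ad-Xon-YAP5SA or Ad-Xon-YAP5SA-S94A. YAP is the transcriptional coactivator held back by the Hippo pathway, YAP5SA is a form that escapes this inhibition because phosphorylated serines are replaced by alanine, and YAP5SA-S94A has in addition the replacement that disrupts contact with TEAD, the DNA-binding partner of YAP. Setting the forms side by side asks which transcripts differ with contact to TEAD. There were 2 RNA-seq libraries for each form, drawn from poly(A) RNA, with about 5.10 and 4.02 gigabases aligned for YAP5SA and 5.02 and 4.97 for YAP5SA-S94A. The labels call the libraries biological replicates without stating separate isolations, so the p-values measure only the spread between these libraries, which may be technical. No library of uninfected or GFP cells was used, so every difference is one between the YAP forms, both of which were overexpressed. The row of Yap1 read 105 and 99.1 TPM in YAP5SA and 117 and 121 TPM in YAP5SA-S94A, and it cannot tell the forms apart.

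Replication starts when the origin recognition complex, Cdc6 and Cdt1 load the ring-shaped MCM helicase onto DNA in G1, and it fires in S phase when Cdc45 and GINS join the helicase and polymerases follow. DNA polymerase alpha-primase lays primers, the RFC clamp loader places the PCNA ring, and polymerases delta and epsilon extend, while ribonucleotide reductase, thymidylate synthase and thymidine kinase supply the deoxynucleotides. Many of these genes are transcribed under E2F factors as cells pass from G1 to S phase, and rat cardiomyocytes lose most of this activity soon after birth.

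Replication genes rose in YAP5SA in every role group except Okazaki fragment maturation, where 0 of 2 did. In the other groups the counts ran from 2 of 5 chromatin genes to 3 of 4 genes of licensing. Groups this small can hold a call at the 17.4% rate of all tested genes. With no filter on level, 0 of 6 helicase activation genes rose. Values are TPM, which is scaled per length of transcript and to a fixed sum per library, and a difference is the level in YAP5SA minus that in YAP5SA-S94A, both as log2(TPM + 1), a scale that makes the changes of low genes look smaller. A gene is said to have risen or fallen, or to be called, where its limma adjusted p over all tested genes was under 0.05. Of the 44 members 24 rose, 0 fell and 20 were not called, where 17.4% of all tested genes rose and 15.5% fell, 32.9% in either direction. Without YAP5SA-S94A replicate 1 the number that rose was 16. The median difference was 0.65 over the members and 0.00015 over all tested genes, and 37 members had a difference above 0.

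Both YAP5SA libraries lay above both YAP5SA-S94A libraries for 30 members, below them for 3 and overlapped with them for 11. Over all tested genes 34.5% lay wholly above and 33.8% wholly below. The smallest two-sided p of an exact permutation test is 0.333 with 2 libraries against 2, and each call therefore leans on the spread limma shares across genes. The members together made up 1171 and 1209 TPM in YAP5SA and 856 and 851 TPM in YAP5SA-S94A, which is 0.117% and 0.121% of all transcripts in YAP5SA, against 0.0856% and 0.0851% in YAP5SA-S94A. The median difference between the replicates of a member was 0.17 in YAP5SA and 0.09 in YAP5SA-S94A, on the log2(TPM + 1) scale. In RNA from a whole culture, more cells that express a gene and more of its RNA per cell cannot be told apart.

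**Figure D1:**
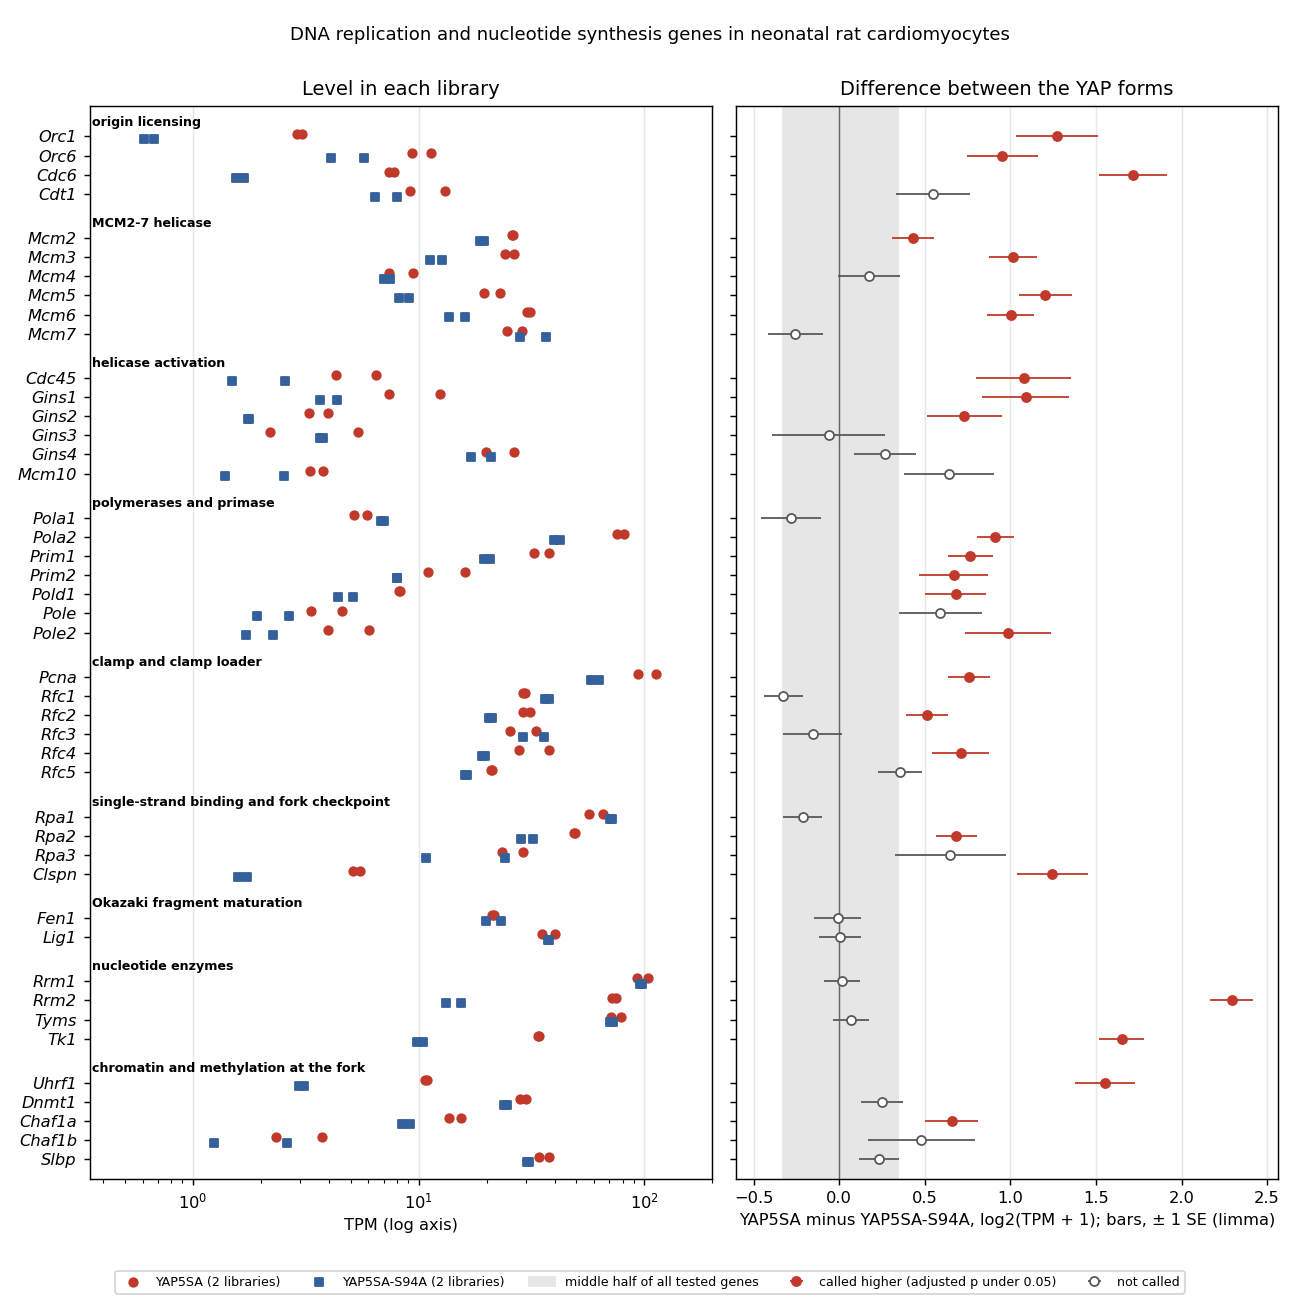
Left, TPM of the 44 members in each of the 4 libraries on a log axis, with YAP5SA as circles and YAP5SA-S94A as squares; right, the difference between the YAP forms on the log2(TPM + 1) scale with bars of 1 SE from limma, against a grey band that runs from the lower to the upper quartile of all tested genes (-0.33 to 0.34). Filled points are the 24 members that rose, and the open points include Lig1, Fen1, Rrm1 and Tyms near 0.

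Promoters of the members were read because YAP acts through TEAD, and many S-phase genes through E2F. RefSeq windows from 250 bases before to 50 after the start, in the rat build GRCr8, were matched for 38 of the 44 members. Where a gene had several windows only the first listed was read, in members and in all promoters alike. Which start these cells use was not tested. Spellings of the E2F core were searched on either strand: TTGGCGC was the first of these, while TTCCCGC was the next, with TTGCCGC as another spelling besides TTCGCGC as the last. An E2F core stood in 28 of the 38 (73.7%), against 10.0% of 27457 promoters. They stood in 13 of 21 members that rose and in 15 of 17 that were not called. CCAAT, on either strand, stood in 24 (63.2%), against 37.7% of all promoters. TTTGAA, the core of the cell cycle homology region, stood in 4 (10.5%, against 18.1%), and GGAATG, the letters read by TEAD factors, in 2, Pold1 and Rfc2 (5.26%, against 13.9%). The promoters used for comparison were not matched to the members for base content or expression, and the part of either in these shares was not tested. E2F core and CCAAT matches may share letters, and a match describes these windows and shows no binding.

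The windows below are those of the 3 matched members with the smallest p, of the member with the largest p, and of Mcm5 and Mcm7, helicase subunits that were picked after their values were seen because they lay at opposite ends of their complex. Each runs 5′ to 3′ along its gene, and capitals mark letters of the E2F core or CCAAT. None of the searched E2F core spellings stood in the windows of Tk1, Uhrf1 (the first of its 3 windows) or Pola2, which rose. Lig1, which was not called, held 2 after its start. Other spellings were not searched, so E2F sites spelled otherwise may stand in these windows.
Tk1 (chr10:103544728-103545027, minus strand): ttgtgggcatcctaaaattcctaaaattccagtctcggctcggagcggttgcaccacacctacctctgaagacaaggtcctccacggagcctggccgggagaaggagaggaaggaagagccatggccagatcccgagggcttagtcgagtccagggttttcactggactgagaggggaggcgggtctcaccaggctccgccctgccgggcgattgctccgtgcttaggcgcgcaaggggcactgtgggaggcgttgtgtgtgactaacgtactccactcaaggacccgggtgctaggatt
Uhrf1 (chr9:1221813-1222112, plus strand): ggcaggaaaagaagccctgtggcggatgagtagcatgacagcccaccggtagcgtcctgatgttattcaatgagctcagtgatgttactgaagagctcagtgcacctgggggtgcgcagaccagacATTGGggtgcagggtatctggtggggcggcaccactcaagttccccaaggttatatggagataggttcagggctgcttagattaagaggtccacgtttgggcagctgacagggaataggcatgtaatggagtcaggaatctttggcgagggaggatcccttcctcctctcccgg
Pola2 (chr1:212680493-212680792, minus strand): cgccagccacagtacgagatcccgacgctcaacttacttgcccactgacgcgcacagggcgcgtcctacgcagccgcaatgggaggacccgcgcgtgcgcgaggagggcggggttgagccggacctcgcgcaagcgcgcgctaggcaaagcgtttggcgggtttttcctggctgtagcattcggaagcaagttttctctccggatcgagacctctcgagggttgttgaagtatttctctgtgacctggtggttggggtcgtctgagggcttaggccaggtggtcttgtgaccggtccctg
Lig1 (chr1:83242920-83243219, plus strand): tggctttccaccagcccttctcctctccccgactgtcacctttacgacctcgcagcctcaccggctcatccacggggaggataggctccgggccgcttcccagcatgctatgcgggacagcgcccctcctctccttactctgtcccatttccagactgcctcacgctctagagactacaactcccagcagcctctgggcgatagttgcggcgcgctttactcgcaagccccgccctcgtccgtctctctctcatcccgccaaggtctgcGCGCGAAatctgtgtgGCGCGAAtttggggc
Mcm5 (chr19:13488563-13488862, plus strand): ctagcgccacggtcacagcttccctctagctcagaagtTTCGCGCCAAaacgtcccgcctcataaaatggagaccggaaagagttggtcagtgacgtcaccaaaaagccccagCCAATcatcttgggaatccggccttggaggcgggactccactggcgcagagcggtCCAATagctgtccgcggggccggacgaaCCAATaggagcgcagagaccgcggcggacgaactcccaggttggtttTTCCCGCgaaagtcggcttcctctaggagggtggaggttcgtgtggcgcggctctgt
Mcm7 (chr12:22163129-22163428, minus strand): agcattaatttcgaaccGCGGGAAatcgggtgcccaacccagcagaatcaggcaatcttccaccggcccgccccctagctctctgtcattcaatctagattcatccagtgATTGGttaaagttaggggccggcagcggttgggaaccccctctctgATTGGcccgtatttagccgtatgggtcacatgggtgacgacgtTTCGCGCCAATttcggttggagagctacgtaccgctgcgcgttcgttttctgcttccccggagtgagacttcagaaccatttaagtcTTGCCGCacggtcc
Mcm5, which rose, and Mcm7, which was not called, carried similar sets: 3 E2F cores and 3 CCAAT boxes in Mcm5 and 4 and 3 in Mcm7. In both, an E2F core on one strand overlapped one on the other, with the run TTCGCGCCAA.

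Among the licensing factors, Cdc6 and Orc1 had the largest differences. Of the 4 licensing genes 3 rose, with a median difference of 1.11. Cdc6 (chromosome 10, 83864189 to 83878011, rn7 here and below), the ATPase that recruits the helicase to origins, had 7.81 and 7.37 TPM in YAP5SA and 1.55 and 1.68 TPM in YAP5SA-S94A. Orc1 (chromosome 5, 123324273 to 123348375), the origin recognition subunit that cycles with the cell cycle, had 2.90 and 3.04 TPM in YAP5SA, against 0.675 and 0.611 TPM in YAP5SA-S94A. The forms were well separated in both genes, although Orc1 had the lowest level of all members in YAP5SA-S94A, under 1 TPM. Cdc6 rose by 1.72 (SE 0.20, limma adjusted p = 0.000803) and Orc1 by 1.27 (SE 0.24, adjusted p = 0.00666). Orc1 was the 1 member whose mean lay under the minimum of 1 TPM in one form. It entered the test only through its level in YAP5SA, so its call adds no support to the counts, and its difference was 2.05 with a pseudocount of 0.1 and 0.78 in FPKM.

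Orc6, the smallest origin recognition subunit, had 9.38 and 11.4 TPM in YAP5SA and 4.10 and 5.71 TPM in YAP5SA-S94A. It rose by 0.95 (SE 0.21, limma adjusted p = 0.012), which did not hold without YAP5SA replicate 2 (adjusted p = 0.0511) and without YAP5SA-S94A replicate 1 (0.0647). Cdt1, the loader that is destroyed once S phase starts, had 13.1 and 9.13 TPM in YAP5SA and 8.05 and 6.38 TPM in YAP5SA-S94A, with no overlap. Its difference of 0.55 was not called (SE 0.21, limma adjusted p = 0.0932), but was called without YAP5SA replicate 2 (adjusted p = 0.0352). Of 9 further licensing genes tested 1 rose (11.1%, against 17.4% of all tested genes), a count that changed without YAP5SA replicate 1. That gene was Gmnn, which encodes geminin, the protein that binds and blocks Cdt1. It had 22.6 and 28.3 TPM in YAP5SA and 9.24 and 9.58 TPM in YAP5SA-S94A and rose by 1.34 (limma adjusted p = 0.00091). The ratio of Cdt1 to Gmnn was 0.579 and 0.323 in YAP5SA, below the 0.871 and 0.666 in YAP5SA-S94A.

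Of the subunits of the MCM2-7 helicase, Mcm2, Mcm3, Mcm5 and Mcm6 rose, and Mcm4 and Mcm7 were not called. Of the ring's 6 genes 4 rose, with a median difference of 0.72. Mcm5 (chromosome 19, 13483030 to 13504389) had 22.9 and 19.5 TPM in YAP5SA and 9.06 and 8.19 TPM in YAP5SA-S94A, and rose by 1.20 (SE 0.15, limma adjusted p = 0.0013). Mcm6 (chromosome 13, 39826745 to 39851937) had 31.2 and 30.3 TPM in YAP5SA and 13.7 and 16.1 TPM in YAP5SA-S94A, and rose by 1.00 (SE 0.14, adjusted p = 0.00171). Mcm3 (chromosome 9, 23219169 to 23237314) had 24.2 and 26.4 TPM in YAP5SA and 12.7 and 11.3 TPM in YAP5SA-S94A, and rose by 1.02 (SE 0.14, adjusted p = 0.00175). In these 3 genes every YAP5SA library stood well above every YAP5SA-S94A library.

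Mcm2 rose by 0.43 (SE 0.12, limma adjusted p = 0.0345), with 26.2 and 25.9 TPM in YAP5SA and 18.7 and 19.5 TPM in YAP5SA-S94A, but not when either YAP5SA-S94A replicate was left out (adjusted p = 0.281 without replicate 1 and 0.197 without replicate 2). The Mcm2 call was also lost in FPKM (0.0652), with no filter (0.0524) and once the mitochondrial chromosome was removed (0.0598). Mcm4 had 9.41 and 7.36 TPM in YAP5SA and 7.49 and 7.05 TPM in YAP5SA-S94A, groups that overlapped (difference 0.17, SE 0.18, limma adjusted p = 0.504). Mcm7 (chromosome 12, 17042207 to 17049470), whose span also holds the microRNA gene Mir25, had 28.8 and 24.7 TPM in YAP5SA and 28.1 and 36.5 TPM in YAP5SA-S94A. It was the helicase gene with a difference below 0, at -0.26 (SE 0.16, adjusted p = 0.261), and its groups overlapped. Mcm7 was thus the most abundant helicase transcript in both YAP5SA-S94A libraries and Mcm6 in both YAP5SA libraries, with Mcm4 the least abundant in all 4. Mcm5 and Mcm7 had the largest and the smallest difference of the 6, and this pair was picked after its values were seen. Their ratio was 0.796 and 0.790 in YAP5SA and 0.322 and 0.225 in YAP5SA-S94A, a gap that follows from that choice. The 6 subunits summed to 143 and 134 TPM in YAP5SA and 89.7 and 98.6 TPM in YAP5SA-S94A.

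**Figure D2:**
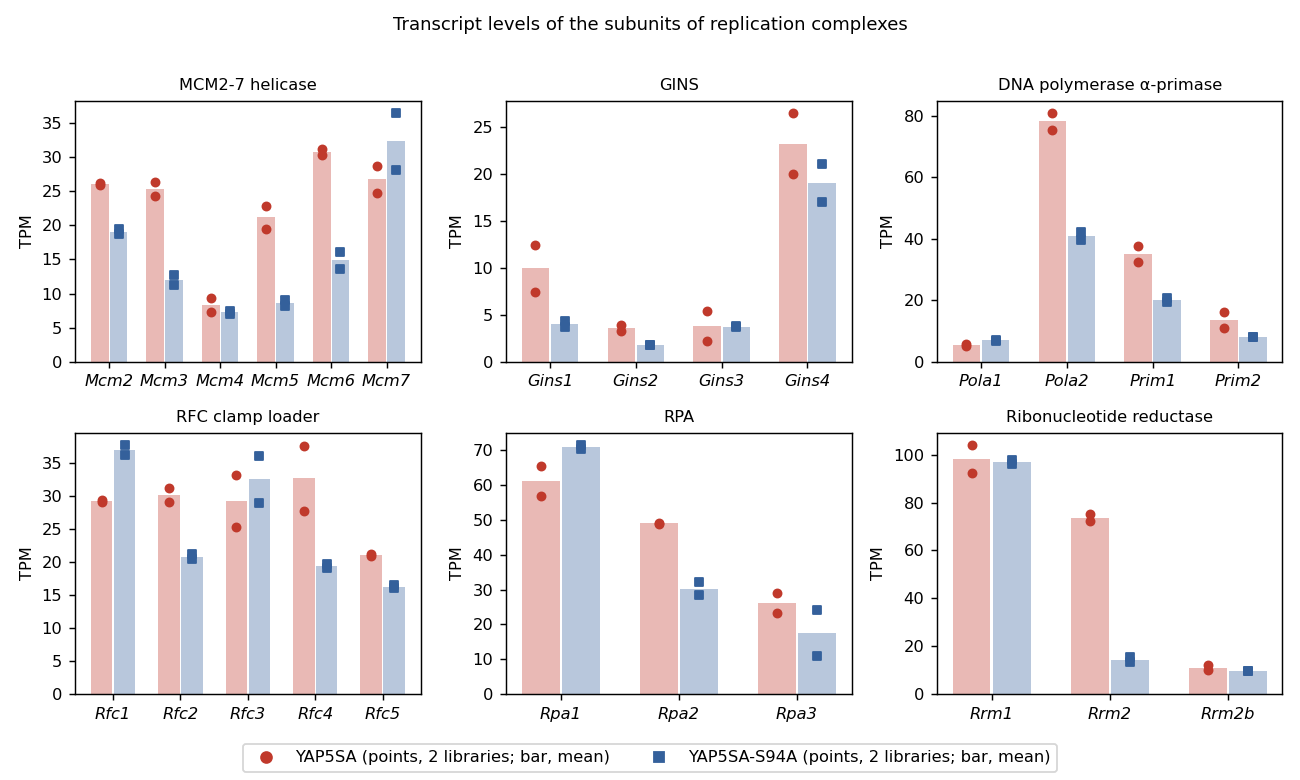
TPM of the subunits of 6 replication complexes, with YAP5SA left of YAP5SA-S94A, points for the 2 libraries of each form and bars for their mean. In MCM2-7, RFC and RPA some subunits were higher in YAP5SA while Mcm7, Rfc1 and Rpa1 had the lower mean there, and in ribonucleotide reductase Rrm2 differed and Rrm1 did not separate.

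Of the 6 factors that turn the loaded ring into a moving helicase 3 rose, with a median difference of 0.69, and 1 rose without YAP5SA-S94A replicate 1. Cdc45, which completes the active helicase, had 6.49 and 4.30 TPM in YAP5SA and 1.49 and 2.57 TPM in YAP5SA-S94A and rose by 1.08 (SE 0.28, limma adjusted p = 0.0231). This call was lost without YAP5SA replicate 1 (adjusted p = 0.0825) and without YAP5SA-S94A replicate 1 (0.0864). The GINS complex joins the helicase as a tetramer, and its genes divided evenly. Gins1 had 7.41 and 12.4 TPM in YAP5SA and 4.36 and 3.66 TPM in YAP5SA-S94A and rose by 1.09 (SE 0.25, adjusted p = 0.0157). Gins2 had 3.28 and 3.96 TPM in YAP5SA and 1.78 and 1.77 TPM in YAP5SA-S94A and rose by 0.73 (SE 0.22, adjusted p = 0.0411). The Gins2 call was lost without YAP5SA replicate 2 (0.0949) and without YAP5SA-S94A replicate 1 (0.171) or 2 (0.178), and the gene overlaps Gse1 on the opposite strand over 2687 bases.

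Gins3 had 2.21 and 5.40 TPM in YAP5SA, either side of the 3.79 and 3.67 TPM in YAP5SA-S94A, and its difference of -0.06 (SE 0.33, limma adjusted p = 0.907) turned to 0.44 without YAP5SA replicate 1. It had the largest replicate difference of any member in YAP5SA, 0.99 on the log2 scale. Gins4, the most abundant GINS transcript in every library, had 19.9 and 26.4 TPM in YAP5SA and 17.0 and 21.0 TPM in YAP5SA-S94A, which overlapped (difference 0.27, adjusted p = 0.294). Mcm10, which helps the helicase leave the origin, had 3.78 and 3.32 TPM in YAP5SA, above the 1.39 and 2.55 TPM in YAP5SA-S94A, and its difference of 0.64 was not called (SE 0.26, adjusted p = 0.105).

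Among 8 further genes of origin firing 3 rose and 0 fell, with a median difference of 0.64, where 17.4% of all tested genes rose and 15.5% fell. Cdc7 (chromosome 14, 2804660 to 2824796), the kinase that phosphorylates the MCM ring, had 5.98 and 5.89 TPM in YAP5SA and 1.27 and 1.46 TPM in YAP5SA-S94A, and rose by 1.55 (limma adjusted p = 0.00153). Dbf4, its activating subunit, had 13.8 and 21.2 TPM in YAP5SA and 8.53 and 9.23 TPM in YAP5SA-S94A, and rose by 0.87 (adjusted p = 0.0189), or by 0.58 without YAP5SA replicate 2 (adjusted p = 0.0404). With no filter, Cdc7 was the 1 firing gene still called. Both subunits of this kinase were therefore higher in each YAP5SA library. Wdhd1, which links the helicase to polymerase alpha, had 5.92 and 7.47 TPM in YAP5SA and 3.80 and 3.82 TPM in YAP5SA-S94A and rose by 0.67 (adjusted p = 0.0369). Its call was lost without YAP5SA replicate 2 (0.093) and without YAP5SA-S94A replicate 1 (0.155) or 2 (0.15).

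**Figure D3:**
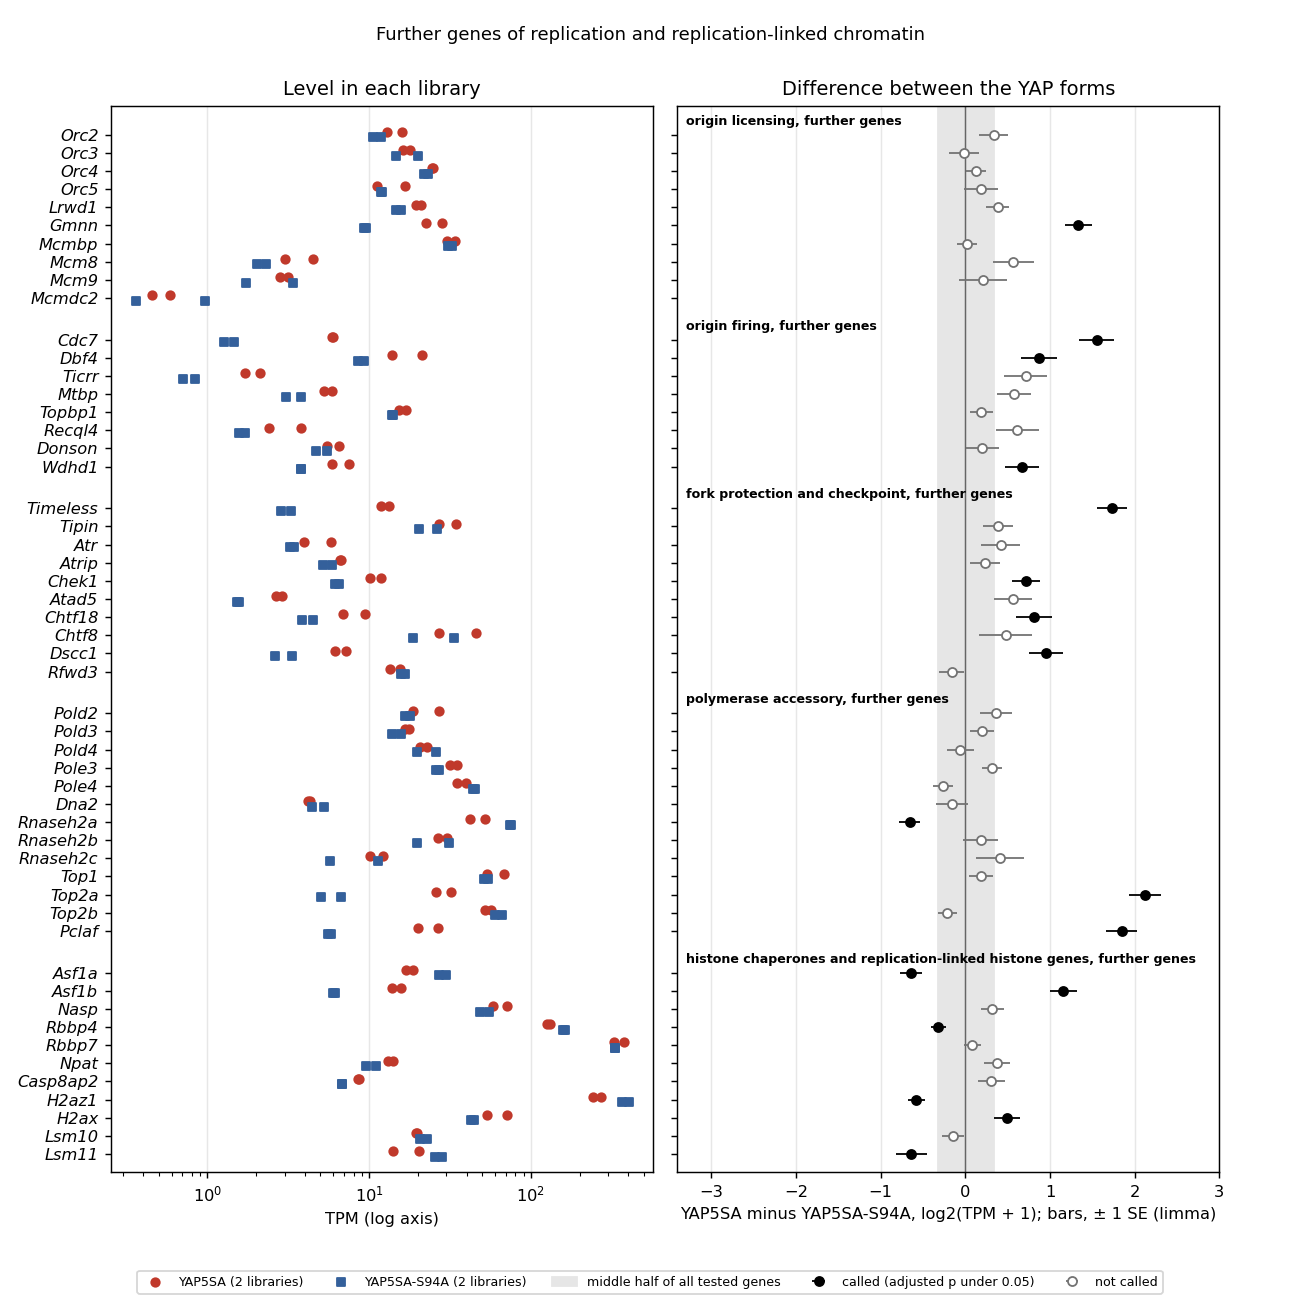
Genes of replication outside the 44 members, by list, with TPM in each library on a log axis (left) and the difference between the YAP forms with bars of 1 SE from limma (right), against the interquartile range of all tested genes in grey. Gmnn, Cdc7, Timeless, Top2a and Pclaf stood above 1 on the log2 scale, and Rnaseh2a, H2az1 and Asf1a below 0; Mcmdc2 was too low to be tested.

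In DNA polymerase alpha-primase the catalytic subunit Pola1 was not called, while its 3 partners rose. Of the 7 polymerase and primase genes 5 rose, with a median difference of 0.68. Without YAP5SA-S94A replicate 1 the number was 2, and without replicate 2 of that form it was 3. Pola2 (chromosome 1, 203227183 to 203251350), the regulatory B subunit, had 81.0 and 75.4 TPM in YAP5SA and 42.4 and 39.8 TPM in YAP5SA-S94A, and rose by 0.91 (SE 0.11, limma adjusted p = 0.000886). Prim1 (chromosome 7, 446342 to 462526), the catalytic primase subunit, had 32.4 and 37.6 TPM in YAP5SA and 20.8 and 19.5 TPM in YAP5SA-S94A, and rose by 0.77 (SE 0.13, adjusted p = 0.00472). Prim2, the large primase subunit, lay between 11.0 and 16.1 TPM in YAP5SA and at 8.00 and 7.99 TPM in YAP5SA-S94A and rose by 0.67 (adjusted p = 0.0412), which did not hold without YAP5SA replicate 2 (0.0963) and without YAP5SA-S94A replicate 1 (0.0877) or 2 (0.0842). Without YAP5SA replicate 2 the Prim2 difference was 0.41. That call was also lost under quantile normalization (0.0742), with no intensity trend (0.0612), with no filter (0.125) and once the mitochondrial chromosome was removed (0.0532).

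Pola1 (chromosome X, 58034617 to 58348612), the polymerase subunit itself, had 5.91 and 5.17 TPM in YAP5SA and 7.03 and 6.84 TPM in YAP5SA-S94A. Both YAP5SA libraries were the lower ones, with a difference of -0.28 that was not called (SE 0.18, limma adjusted p = 0.265). By TPM, Pola1 was the least and Pola2 the most abundant of the 4 subunit transcripts in every library. The TPM ratio of Pola2 to Pola1 was 13.7 and 14.6 in YAP5SA and 6.03 and 5.81 in YAP5SA-S94A. These subunits had the largest and the smallest difference of the 4, so a gap in their ratio follows from the choice of pair. By per-base coverage the order differed. Prim2 lay below Pola1 in every library (2.99 against 10.9 in YAP5SA replicate 1). Prim1 lay above Pola2 in YAP5SA replicate 2 and in both YAP5SA-S94A libraries. The order thus holds for TPM alone, and why the measures differ was not tested.

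The replicative polymerases were among the lower transcripts of the set. Pold1, the catalytic subunit of polymerase delta, had 8.26 and 8.18 TPM in YAP5SA and 4.41 and 5.13 TPM in YAP5SA-S94A and rose by 0.68 (SE 0.18, limma adjusted p = 0.0244). Pole2, the second subunit of polymerase epsilon, had 6.03 and 3.98 TPM in YAP5SA and 1.73 and 2.28 TPM in YAP5SA-S94A and rose by 0.98 (SE 0.25, adjusted p = 0.0228). Both calls depended on the libraries used: that of Pold1 did not hold without YAP5SA-S94A replicate 1 (0.198) or 2 (0.0719), and that of Pole2 without YAP5SA replicate 1 (0.0696) or YAP5SA-S94A replicate 1 (0.0785). Pole2 also lies within the span of Klhdc1 on the opposite strand, over 38022 bases. Pole, the catalytic subunit of epsilon, had 3.35 and 4.58 TPM in YAP5SA, above the 1.92 and 2.66 TPM in YAP5SA-S94A, and was not called (difference 0.59, SE 0.24, adjusted p = 0.105).

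The sliding clamp rose, while its loader was divided. Pcna (chromosome 3, 119499039 to 119502911), the ring that tethers polymerases to DNA, had 93.4 and 112 TPM in YAP5SA, the highest level of any member there, and 62.7 and 57.9 TPM in YAP5SA-S94A. It rose by 0.76 (SE 0.12, limma adjusted p = 0.00353). Of the 5 loader genes 2 rose (median difference 0.36; 1 with either YAP5SA-S94A library left out), against 4 of 6 in the helicase and 5 of 7 among polymerases and primase, and the difference between these counts was not tested. Rfc4 had 27.8 and 37.6 TPM in YAP5SA and 19.1 and 19.7 TPM in YAP5SA-S94A and rose by 0.71 (SE 0.16, adjusted p = 0.0156). Rfc2 had 29.0 and 31.2 TPM in YAP5SA and 21.2 and 20.4 TPM in YAP5SA-S94A and rose by 0.51 (SE 0.12, adjusted p = 0.0178), which did not hold without YAP5SA-S94A replicate 1 (0.108) or 2 (0.155).

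Rfc1, the large subunit, which other clamp loaders replace with a subunit of their own, had 29.5 and 29.1 TPM in YAP5SA and 37.7 and 36.3 TPM in YAP5SA-S94A. Both YAP5SA libraries were lower; the difference of -0.33 was not called (SE 0.11, limma adjusted p = 0.0647), but was called without YAP5SA replicate 1 (adjusted p = 0.0456) and after removal of the mitochondrial chromosome (0.0314). Rfc3 had 33.1 and 25.3 TPM in YAP5SA and 36.1 and 29.0 TPM in YAP5SA-S94A, with replicate 1 the higher one in each form and overlapping groups. Its difference of -0.16 (adjusted p = 0.53) became 0.03 without YAP5SA replicate 2. Rfc5 had 21.2 and 21.0 TPM in YAP5SA, above the 16.5 and 16.0 TPM in YAP5SA-S94A, and was not called (difference 0.36, SE 0.13, adjusted p = 0.0732). The most abundant of the 5 loader transcripts exceeded the least abundant by 1.56 and 1.79 times in the YAP5SA libraries and by 2.29 and 2.27 times in the YAP5SA-S94A libraries.

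In the single-strand binding protein RPA, 1 subunit gene rose and the others were not called. Of the 4 genes of single-strand binding and the fork checkpoint 2 rose, with a median difference of 0.67 (0.44 without YAP5SA-S94A replicate 2). Rpa2 (chromosome 5, 144976789 to 144989445), the middle subunit, had 48.9 and 49.2 TPM in YAP5SA and 28.3 and 32.1 TPM in YAP5SA-S94A and rose by 0.68 (SE 0.12, limma adjusted p = 0.00477). Rpa1, the large DNA-binding subunit, had 65.6 and 56.9 TPM in YAP5SA, below the 71.5 and 70.5 TPM in YAP5SA-S94A, and was not called (difference -0.21, SE 0.11, adjusted p = 0.191). Without YAP5SA replicate 1 it was called lower (adjusted p = 0.031). Rpa3, the small subunit, had 23.4 and 29.0 TPM in YAP5SA and 24.1 and 10.8 TPM in YAP5SA-S94A. The YAP5SA-S94A replicates differed by 1.09 on the log2 scale, the most of any member, and the difference of 0.65 was not called (SE 0.32, adjusted p = 0.17); without YAP5SA-S94A replicate 1 it was 1.19 and called (adjusted p = 7.47e-05), and without YAP5SA-S94A replicate 2 it was 0.10 (adjusted p = 0.829).

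Clspn (chromosome 5, 138850119 to 138885037), which encodes claspin, the adaptor between stalled forks and the checkpoint kinase Chek1, had 5.11 and 5.51 TPM in YAP5SA and 1.58 and 1.74 TPM in YAP5SA-S94A and rose by 1.24 (SE 0.21, limma adjusted p = 0.00396). Of 10 further genes of fork protection and checkpoint 4 rose (2 without YAP5SA-S94A replicate 1) and 0 fell. Over all tested genes 17.4% rose and 15.5% fell. Timeless (chromosome 7, 654804 to 678769), a partner of claspin at the fork, had 13.3 and 11.8 TPM in YAP5SA and 3.30 and 2.86 TPM in YAP5SA-S94A and rose by 1.73 (adjusted p = 0.000514). Dscc1, a subunit of an alternative clamp loader, had 6.17 and 7.15 TPM in YAP5SA and 3.32 and 2.62 TPM in YAP5SA-S94A and rose by 0.95 (adjusted p = 0.0114; 0.0655 without YAP5SA-S94A replicate 2). Chek1 had 10.2 and 11.9 TPM in YAP5SA and 6.52 and 6.12 TPM in YAP5SA-S94A and rose by 0.71 (adjusted p = 0.0165). That call was lost without YAP5SA-S94A replicate 1 (0.0605) or 2 (0.0962).

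The genes that finish the lagging strand showed no separation between the forms. Fen1, the nuclease that trims the flaps of Okazaki fragments, had 21.6 and 21.0 TPM in YAP5SA and 19.9 and 23.1 TPM in YAP5SA-S94A. Lig1, the ligase that seals them, had 40.3 and 35.2 TPM in YAP5SA and 37.5 and 37.7 TPM in YAP5SA-S94A. Both groups overlapped, neither gene was called, and the limma differences were -0.01 for Fen1 (SE 0.14, adjusted p = 0.965) and 0.0042 for Lig1 (SE 0.12, adjusted p = 0.983). The signs of such small values depended on the processing: Fen1 was 0.0077 without YAP5SA replicate 2 and 0.09 without YAP5SA-S94A replicate 2, and Lig1 was -0.09 without YAP5SA replicate 1, -0.07 with the mitochondrial chromosome left out, -0.02 in FPKM and -0.0088 under quantile normalization. Each gene overlaps a neighbour on the opposite strand, over 99 bases for Fen1 (Tmem258) and 117 for Lig1 (Zswim9).

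Among 13 further polymerase accessory genes 2 rose (15.4%) and 1 fell, where 17.4% of all tested genes rose and 15.5% fell. The list as a whole thus lay near the share over all genes. Both counts changed with single libraries left out. Top2a (chromosome 10, 83945731 to 83976874), the topoisomerase of dividing cells, had 25.7 and 31.9 TPM in YAP5SA and 5.02 and 6.72 TPM in YAP5SA-S94A and rose by 2.12 (limma adjusted p = 0.000252). Pclaf, a PCNA-binding protein whose gene overlaps Trip4 on the opposite strand, had 20.0 and 26.4 TPM in YAP5SA and 5.56 and 5.80 TPM in YAP5SA-S94A and rose by 1.84 (adjusted p = 0.000383). Rnaseh2a, the catalytic subunit of the ribonuclease that removes RNA from DNA, went the other way: it had 51.9 and 42.2 TPM in YAP5SA, below the 73.9 and 75.0 TPM in YAP5SA-S94A, and fell by 0.66 (adjusted p = 0.00745).

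Nucleotide supply held both the largest difference of the set and some of the smallest. Rrm2 (chromosome 6, 41339858 to 41346774), the S-phase small subunit of ribonucleotide reductase, had 75.1 and 72.1 TPM in YAP5SA and 13.2 and 15.4 TPM in YAP5SA-S94A. It rose by 2.29 (SE 0.13, limma adjusted p = 4.10e-05), the largest difference of the 44. Rrm1 (chromosome 1, 156823960 to 156848262), the large subunit that carries the catalytic site, had 92.5 and 104 TPM in YAP5SA, either side of the 96.0 and 97.9 TPM in YAP5SA-S94A, with a difference of 0.02 (SE 0.10, adjusted p = 0.923). Rrm2b, the small subunit used outside S phase, had 12.0 and 9.86 TPM in YAP5SA and 9.78 and 9.57 TPM in YAP5SA-S94A and was not called (difference 0.16, adjusted p = 0.505). The ratio of Rrm2 to Rrm1 transcripts was 0.812 and 0.693 in YAP5SA, against 0.137 and 0.157 in YAP5SA-S94A, and that of Rrm2 to Rrm2b was 6.24 and 7.31 in YAP5SA, against 1.35 and 1.60 in YAP5SA-S94A.

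Of the thymidylate enzymes Tk1 rose and Tyms was not called. Tk1 (chromosome 10, 103034755 to 103046125), the cytosolic thymidine kinase of S phase, had 34.1 and 33.8 TPM in YAP5SA and 10.5 and 9.80 TPM in YAP5SA-S94A and rose by 1.65 (SE 0.13, limma adjusted p = 0.000151). Tyms, thymidylate synthase, which makes the same nucleotide from deoxyuridylate, had 71.2 and 78.9 TPM in YAP5SA and 70.0 and 72.9 TPM in YAP5SA-S94A; the groups overlapped (difference 0.07, SE 0.11, adjusted p = 0.661). Tk2, the mitochondrial thymidine kinase, had 13.4 and 9.59 TPM in YAP5SA and 10.7 and 11.8 TPM in YAP5SA-S94A (difference 0.01, adjusted p = 0.964). The ratio of Tk1 to Tk2 was 2.54 and 3.53 in YAP5SA and 0.979 and 0.831 in YAP5SA-S94A. The sign of Rrm1, Tyms and Tk2 turned with the mitochondrial chromosome left out, to -0.05 for Rrm1, -0.0025 for Tyms and -0.05 for Tk2, and in some other settings. With that chromosome left out the median difference over all tested genes was itself -0.066. The 4 nucleotide enzymes among the members thus formed 2 that rose and 2 near 0, and their median of 0.86 describes neither pair.

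**Figure D4:**
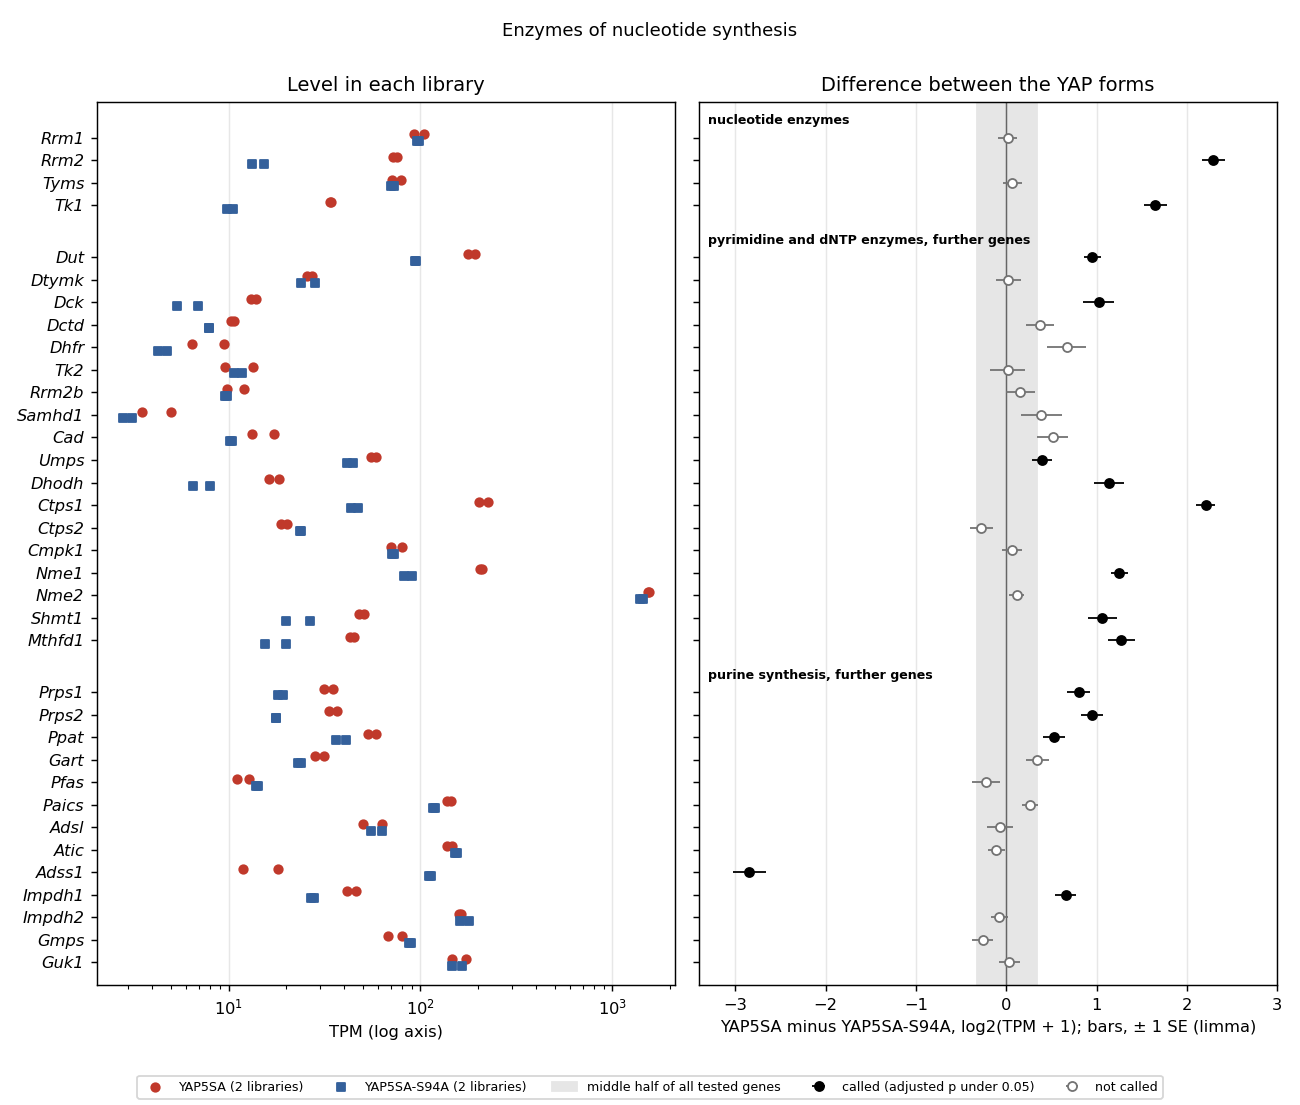
TPM of nucleotide synthesis enzymes in each library on a log axis (left) and the difference between the YAP forms with bars of 1 SE from limma (right), with the interquartile range of all tested genes in grey. Rrm2, Tk1 and Ctps1 stood far to the right, Rrm1 and Tyms at 0, and Adss1 at -2.84.

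The wider pyrimidine pathway also held genes that rose. Of 18 further genes of pyrimidine and deoxynucleotide synthesis 8 rose and 0 fell, with a median difference of 0.46. Over all tested genes 17.4% rose and 15.5% fell. Ctps1 (chromosome 5, 134125022 to 134154155), CTP synthase, had 202 and 224 TPM in YAP5SA and 43.7 and 47.0 TPM in YAP5SA-S94A and rose by 2.21 (limma adjusted p = 2.62e-05). Nme1, a nucleoside diphosphate kinase, had 203 and 210 TPM in YAP5SA and 90.3 and 82.4 TPM in YAP5SA-S94A and rose by 1.25 (adjusted p = 0.000141), though its reads may be shared with the near-identical Nme2. Dut, which hydrolyses dUTP and so yields the substrate of Tyms, had 176 and 192 TPM in YAP5SA and 95.2 and 93.8 TPM in YAP5SA-S94A and rose by 0.95 (adjusted p = 0.000463). The other 5 that rose, by 0.40 to 1.27, were Mthfd1, Dhodh, Shmt1, Dck and Umps, the last of which was not called without YAP5SA-S94A replicate 1 (limma adjusted p = 0.298) or 2 (0.149).

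Of 13 further genes of purine synthesis 4 rose and 1 fell (2 without YAP5SA replicate 2), with a median difference of 0.03, where 17.4% of all tested genes rose and 15.5% fell. The phosphoribosyl pyrophosphate synthetases, which make the sugar donor of both nucleotide pathways, rose: Prps2 had 33.5 and 36.6 TPM in YAP5SA and 17.6 and 17.7 TPM in YAP5SA-S94A (difference 0.95, limma adjusted p = 0.0014), and Prps1 had 31.4 and 35.1 TPM in YAP5SA and 18.0 and 19.2 TPM in YAP5SA-S94A (0.80, adjusted p = 0.00334). Impdh1, an enzyme of the guanine branch, had 46.1 and 41.2 TPM in YAP5SA and 27.8 and 26.8 TPM in YAP5SA-S94A and rose by 0.66 (adjusted p = 0.00584). Adss1 (chromosome 6, 131679795 to 131702012), the muscle form of adenylosuccinate synthase on the adenine branch, had 18.1 and 11.9 TPM in YAP5SA, far below the 113 and 111 TPM in YAP5SA-S94A, and fell by 2.84 (adjusted p = 6.51e-05). Adss2, which was listed beside Adss1, was not found under that name. The fall is therefore known for the muscle form alone.

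At the fork, Uhrf1 rose, while Dnmt1, which it recruits, was not called. Of the 5 chromatin genes 2 rose, with a median difference of 0.48. With either YAP5SA-S94A library left out 1 rose, and the median was 0.71 (replicate 1 left out) and 0.25 (replicate 2 left out); it was 0.30 without YAP5SA replicate 1. Uhrf1 (chromosome 9, 1133117 to 1154639), which binds DNA methylated on one strand and brings in Dnmt1, had 10.9 and 10.7 TPM in YAP5SA and 2.94 and 3.10 TPM in YAP5SA-S94A and rose by 1.55 (SE 0.17, limma adjusted p = 0.000734). Dnmt1, the maintenance methyltransferase, had 30.0 and 28.2 TPM in YAP5SA, above the 24.7 and 23.9 TPM in YAP5SA-S94A, and was not called (difference 0.25, SE 0.12, adjusted p = 0.157). The ratio of Uhrf1 to Dnmt1 was 0.364 and 0.380 in YAP5SA and 0.119 and 0.130 in YAP5SA-S94A.

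Chaf1a, the large subunit of the histone chaperone CAF-1, had 13.6 and 15.4 TPM in YAP5SA and 9.19 and 8.44 TPM in YAP5SA-S94A and rose by 0.66 (SE 0.16, limma adjusted p = 0.0168), which did not hold without YAP5SA-S94A replicate 1 (0.0593) or 2 (0.12). Chaf1b, its partner, had 3.73 and 2.34 TPM in YAP5SA and 2.61 and 1.25 TPM in YAP5SA-S94A, overlapping groups (difference 0.48, SE 0.31, adjusted p = 0.281). Slbp, which binds the stem-loop of histone mRNAs, had 34.3 and 37.8 TPM in YAP5SA, above the 30.1 and 31.0 TPM in YAP5SA-S94A, and was not called (difference 0.23, SE 0.12, adjusted p = 0.178).

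Markers of the cells that the culture could hold were read beside these results. Over all tested genes 17.4% rose and 15.5% fell. The 12 cardiomyocyte markers summed to 39896 and 40085 TPM in YAP5SA and 41751 and 41381 TPM in YAP5SA-S94A. Of these, 2 rose and 7 fell; Myl2 had 9193 and 9864 TPM in YAP5SA and 11365 and 11811 TPM in YAP5SA-S94A (not called, limma adjusted p = 0.0633), and Tnnt2, which had 5811 and 6323 TPM in YAP5SA and 7996 and 8190 TPM in YAP5SA-S94A, fell by 0.42 (adjusted p = 0.0151). These sums hid large changes in opposite directions, in genes named after their values were seen. Myh6, the alpha myosin heavy chain, had 458 and 413 TPM in YAP5SA and 1388 and 1499 TPM in YAP5SA-S94A and fell by 1.73 (adjusted p = 4.15e-05). Tnni3, cardiac troponin I, fell by 1.55 and Pln, phospholamban, by 1.16. Nppa, atrial natriuretic peptide, had 9625 and 9474 TPM in YAP5SA and 3743 and 3714 TPM in YAP5SA-S94A and rose by 1.36 (adjusted p = 6.83e-05), and Actc1, cardiac actin, rose by 0.60. The 10 fibroblast markers summed to 8645 and 6886 TPM in YAP5SA and 7351 and 6995 TPM in YAP5SA-S94A, with 1 up and 2 down. Their most abundant genes, not called, were Col1a1 (3438 and 2462 TPM in YAP5SA, 2378 and 2135 TPM in YAP5SA-S94A) and Col1a2 (2274 and 1797 TPM in YAP5SA, against 1884 and 1745 TPM in YAP5SA-S94A). The ranges of the fibroblast sums overlapped between the forms.

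The other marker lists were lower in level, and their counts stand beside the 17.4% of all tested genes that rose and the 15.5% that fell. The 7 epicardial and mesothelial markers summed to 99.0 and 83.7 TPM in YAP5SA and 49.7 and 47.5 TPM in YAP5SA-S94A. Of 6 tested 3 rose, among them Krt19 (41.5 and 33.0 TPM in YAP5SA, against 7.54 and 7.15 TPM in YAP5SA-S94A). Upk1b (20.7 and 18.3 TPM in YAP5SA, against 27.4 and 23.5 TPM in YAP5SA-S94A) was not called, and neither were Wt1 and Tbx18. In these 3 both YAP5SA libraries lay below both YAP5SA-S94A libraries, with differences of -0.37, -0.20 and -0.34 in that order. The sum thus does not stand for the whole list. The largest difference of that list, named after its values were seen, was in Upk3b, a mesothelial uroplakin, with 22.4 and 18.2 TPM in YAP5SA and 0.611 and 0.544 TPM in YAP5SA-S94A. It rose by 3.75 (limma adjusted p = 3.68e-05), having reached the minimum level only through YAP5SA. The 6 smooth muscle and pericyte markers summed to 316 and 279 TPM in YAP5SA and 226 and 239 TPM in YAP5SA-S94A, with 1 of 6 called, Cnn1 (115 and 99.0 TPM in YAP5SA, against 51.6 and 51.0 TPM in YAP5SA-S94A), and Pdgfrb at 122 and 107 TPM in YAP5SA, against 111 and 121 TPM in YAP5SA-S94A. Leukocyte markers summed to 131 and 118 TPM in YAP5SA and 139 and 138 TPM in YAP5SA-S94A, with Csf1r higher (38.2 and 37.5 TPM in YAP5SA, against 14.6 and 12.9 TPM in YAP5SA-S94A) and Cd68 lower (53.6 and 45.9 TPM in YAP5SA, against 73.4 and 78.2 TPM in YAP5SA-S94A); in all 1 of 7 rose and 2 fell. Endothelial markers summed to 27.8 and 29.3 TPM in YAP5SA and 38.5 and 38.8 TPM in YAP5SA-S94A, with Tek higher (10.2 and 13.0 TPM in YAP5SA, against 3.57 and 3.79 TPM in YAP5SA-S94A) and Kdr lower (3.97 and 3.33 TPM in YAP5SA, against 21.3 and 19.9 TPM in YAP5SA-S94A), the 2 called of 6. No marker was at 0 in all 4 libraries, and the part of these cells in the replication results was not tested.

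Part of the calls within the set depended on the setting. Under 14 other settings, 13 of the 24 members that rose kept their call in every setting in which they were tested: Orc1, Cdc6, Mcm3, Mcm5, Mcm6, Pola2, Prim1, Pcna, Rpa2, Clspn, Rrm2, Tk1 and Uhrf1. Of the 20 not called, 10 stayed so with their sign kept. Orc1 entered the test only through its level in YAP5SA and was not tested at a mean TPM of at least 5. Its place among the 13 therefore adds no support. With no filter on level, which tests 21039 names, 10 members lost their call, with limma adjusted p between 0.0524 and 0.125: Orc6, Mcm2, Cdc45, Gins1, Gins2, Prim2, Pold1, Pole2, Rfc4 and Chaf1a. The Gins2 call was also lost under quantile normalization (0.0601). Among the further genes named above, Dbf4 (0.0844), Wdhd1 (0.105), Dscc1 (0.0541) and Chek1 (0.0592) lost theirs with no filter, as did Wdhd1 under quantile normalization (0.0606). Umps lost its own in FPKM (0.0679), with the mitochondrial chromosome removed (0.0554) and with no intensity trend (0.0703).

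**Figure D5:**
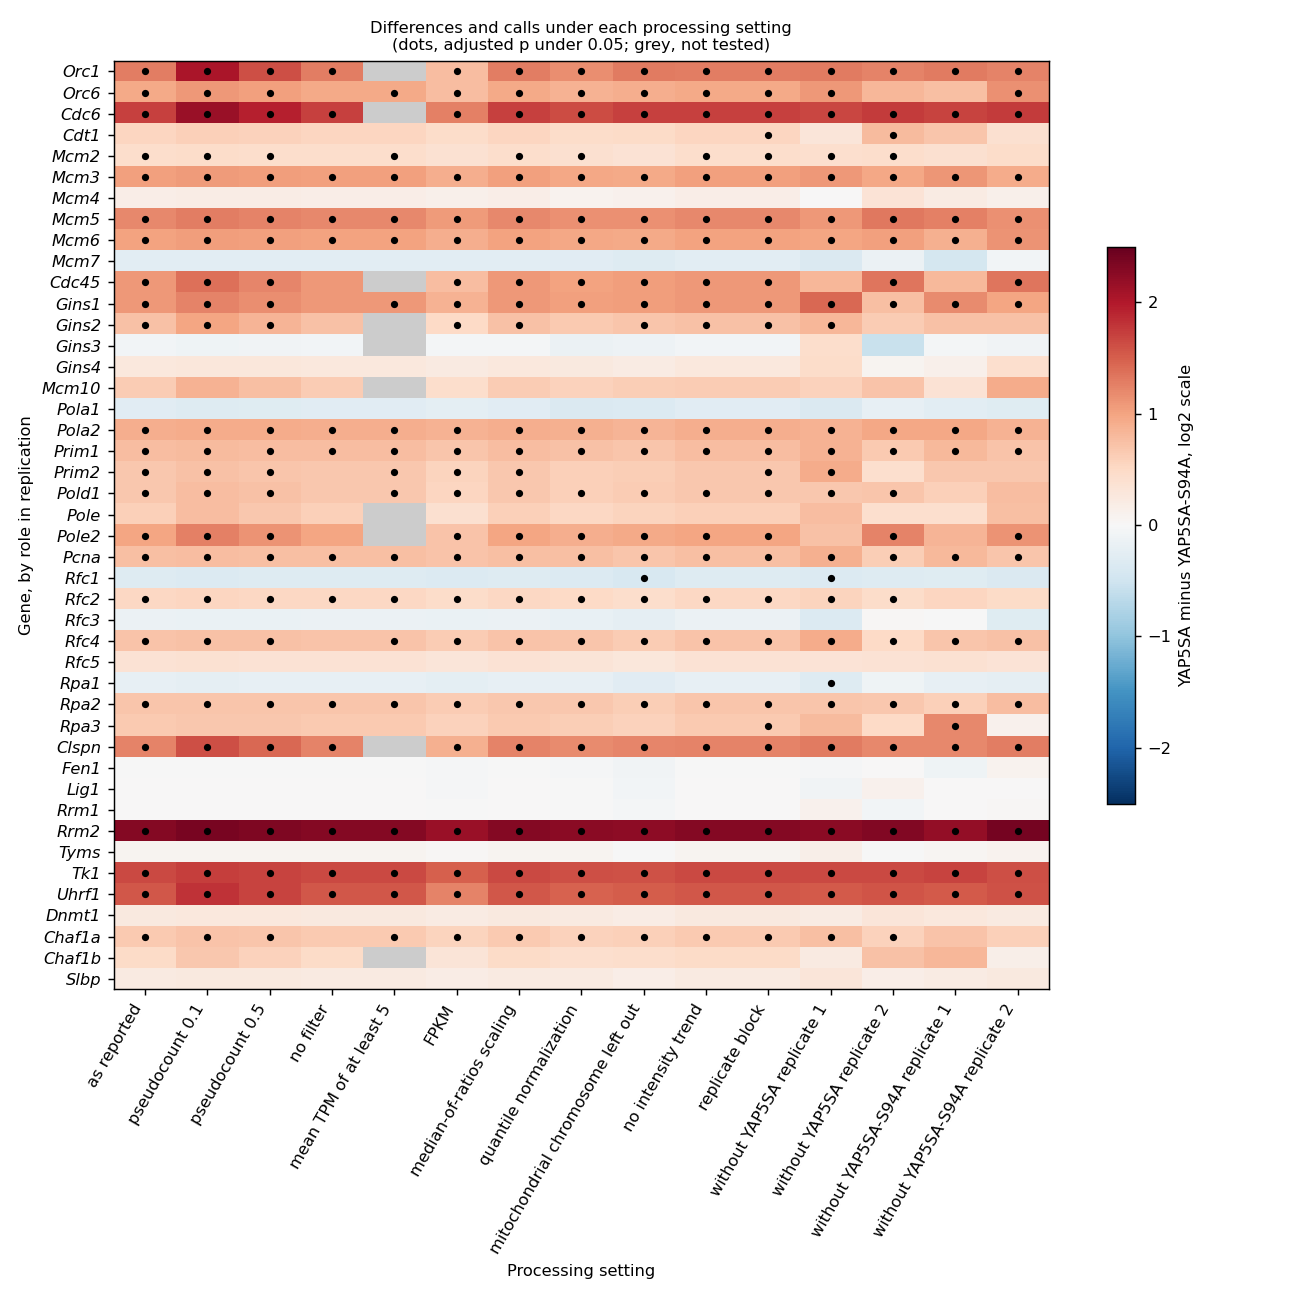
Difference between the YAP forms for each of the 44 members (down the page, by role) as reported and under 14 other settings (across), coloured on the log2 scale, with dots for an adjusted p under 0.05 and grey where the gene was not tested. Rrm2 had the largest difference in each setting, and Mcm7, Pola1, Rfc1 and Rpa1 stayed on the blue side.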

How the data were processed

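RNA-seq of 4 libraries, 2 for each YAP form, was used, while 6 CUT&RUN samples were not analysed here. Per the submitters' processing notes, StringTie 2.2.1, HISAT2 2.2.1, fastp and R 4.3.1 were used with the build rn7. Settings, and whether the strand was used, are not given in the sources used here, so genes overlapping another on the opposite strand are uncertain. The TPM and FPKM values were computed by the authors, and FPKM was a fixed multiple of TPM in each library. The deposited coverage signal is the per-base depth of each gene, 1.09 to 192 over members and libraries, and its most common ratio to FPKM gave the aligned gigabases. Counts per gene were not used here.

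TPM was summed over entries sharing a name (517 of 39784 names). The 13420 names whose TPM averaged 1 or more entered limma 3.58.1 (R 4.3.3) as log2(TPM + 1), with a variance trend on intensity, 2 residual degrees of freedom and 5.09 prior ones; Benjamini-Hochberg adjusted p under 0.05 was called. Named genes are all 44 members; up to 3 called genes in each direction, by smallest p, of each further list, with Rrm2b and Tk2; and the 2 most abundant of each marker list. Members and lists were chosen with earlier results of these data known. Of 85 further genes 83 were in the tables and 82 tested, with 24 higher, 6 lower (3 without YAP5SA-S94A replicate 1) and a median difference of 0.34. Over all tested genes 17.4% were called higher and 15.5% lower. Alternatives were other pseudocounts, filters, units, scalings and variance models, a replicate block, and each library left out. Python 3.11.15 with numpy 2.4.6, pandas 2.3.3 and, for figures, matplotlib 3.10.9 was used.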

Additional observations from a re-analysis of the deposited data

How the results depend on the processing

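With each library left out in turn, 16 to 22 members rose and 0 to 2 fell, and over all tested genes 1299 to 2891 fell and 1717 to 2639 rose. The role groups then ranged as follows. Helicase activation had 1 to 2 genes called and a median of 0.55 to 0.83. Polymerases and primase had 2 to 4 called and a median of 0.66 to 0.77. Chromatin genes had 1 to 2 called and a median of 0.25 to 0.71, and the loader alone had 1 to 2 called. The helicase median was 0.65 to 0.70, the single-strand binding median 0.44 to 0.89, the Okazaki median crossed 0 (-0.0589 to 0.0535), and 3 to 7 further genes fell. With no filter 14 members rose, with 0 in helicase activation, 2 among polymerases, 1 among chromatin genes and 1 in the loader; this setting adjusts p over more genes. At a mean TPM of at least 5, licensing, helicase activation and single-strand binding had 1 call each, because low genes were left out, and the licensing median was 0.75. With the mitochondrial chromosome left out 1 member, Rfc1, fell, and over all genes 2134 rose and 2660 fell, with a median difference of -0.066. Under quantile normalization, 2230 rose and 2443 fell.

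Median differences moved by more than the spread between replicates in some settings. With a pseudocount of 0.1 they were 1.56 for licensing, 0.75 for the helicase, 0.93 for its activation, 0.78 for polymerases and 0.68 for chromatin; with 0.5, 1.31 for licensing and 0.73 for polymerases. In FPKM they were 0.78 for licensing, 0.64 for the helicase, 0.46 for its activation, 0.57 for polymerases, 0.31 for chromatin and 0.30 for the loader. Under quantile normalization the helicase was at 0.69 and polymerases at 0.60; with the mitochondrial chromosome left out they were 0.65 and 0.63, and the loader 0.29. Where a value moved, the cause was not tested.

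Signs turned for small differences, in settings where the median over all tested genes moved as well. That median was -0.024 in FPKM, -0.044 under quantile normalization and -0.066 with the mitochondrial chromosome left out. In FPKM the value was -0.0231 for Lig1, -0.0127 for Rrm1 and -0.0083 for Tk2; under quantile normalization, -0.0088 for Lig1, -0.0044 for Rrm1 and -0.0641 for Tk2; with the mitochondrial chromosome left out, -0.0659 for Lig1, -0.0549 for Rrm1, -0.0025 for Tyms and -0.0524 for Tk2. With each library left out in turn, Gins3 ranged from -0.56 to 0.44, Rfc3 from -0.34 to 0.0330, Fen1 from -0.11 to 0.0904, Lig1 from -0.0910 to 0.0994, Rrm1 from -0.0677 to 0.10, Tyms from -0.0047 to 0.14 and Tk2 from -0.21 to 0.24.

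Whether the replicate numbers pair the libraries is not known, as the labels name nothing shared. Over 13420 genes the deviations of both replicate 1 libraries from their group means correlated at r = 0.101. With 2 libraries per form this value cannot settle the pairing, and the reported fit used none. With the number as a block 26 members rose, among them Cdt1 (limma adjusted p = 0.0288) and Rpa3 (0.0307), and 2726 genes rose and 2593 fell in all. Low members rest on little coverage, down to 1.09 per base for Orc1, and 2 libraries per form limit every call.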

Other observations

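Of 11 tested histone chaperones and replication-linked histone genes 2 rose and 4 fell, with a median difference of 0.08, where 17.4% of all tested genes rose and 15.5% fell; 1 rose with either YAP5SA-S94A library left out, and 1 fell without YAP5SA-S94A replicate 1. Asf1b, the histone chaperone paralog of dividing cells, had 13.8 and 15.7 TPM in YAP5SA and 5.94 and 6.14 TPM in YAP5SA-S94A and rose by 1.16 (limma adjusted p = 0.00176). Its paralog Asf1a had 18.8 and 16.9 TPM in YAP5SA and 29.7 and 27.1 TPM in YAP5SA-S94A and fell by 0.64 (adjusted p = 0.00985), which did not hold without YAP5SA-S94A replicate 1 (0.0978), and it overlaps Mcm9 on the opposite strand. H2az1, a histone variant gene that is transcribed as poly(A) RNA, had 241 and 273 TPM in YAP5SA and 365 and 402 TPM in YAP5SA-S94A and fell by 0.58 (adjusted p = 0.00561). H2ax, the variant marked at DNA breaks, had 71.2 and 53.4 TPM in YAP5SA and 44.6 and 42.5 TPM in YAP5SA-S94A and rose by 0.49 (adjusted p = 0.0432), which did not hold without YAP5SA replicate 1 (0.0569) and without YAP5SA-S94A replicate 1 (0.0734) or 2 (0.132); its difference was 0.29 without YAP5SA replicate 1. The H2ax call was also lost with no filter (0.12), in FPKM (0.0929), with no intensity trend (0.0945) and once the mitochondrial chromosome was removed (0.0501). Rbbp4, a histone-binding subunit that CAF-1 shares with other complexes, had 130 and 126 TPM in YAP5SA and 158 and 163 TPM in YAP5SA-S94A and fell by 0.32 (adjusted p = 0.0341), which did not hold without YAP5SA-S94A replicate 1 (0.245) or 2 (0.332) or with no intensity trend (0.106). Libraries from poly(A) RNA hold few transcripts of the replication-dependent histone genes, which lack a poly(A) tail.

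Several genes with a close paralog showed ratios that did not overlap between the forms, in pairs picked after their values were seen. The ratio of Asf1b to Asf1a was 0.733 and 0.932 in YAP5SA and 0.200 and 0.227 in YAP5SA-S94A. That of Top2a to Top2b, the topoisomerase also used by resting cells, was 0.495 and 0.567 in YAP5SA and 0.0841 and 0.102 in YAP5SA-S94A. That of Ctps1 to Ctps2 was 10.8 and 11.1 in YAP5SA and 1.85 and 1.98 in YAP5SA-S94A, and that of Impdh1 to Impdh2 was 0.291 and 0.252 in YAP5SA and 0.155 and 0.166 in YAP5SA-S94A. These ratios are given as a description and were not tested.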
